A study of Rattus norvegicus with 5 samples.

Results

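Lung RNA of rats that had received saline alone was compared with lung RNA of rats that had received nothing. This sets an instillation without any dust beside no instillation. The comparison used 2 of the 5 arrays of the series, the saline sham array and the untreated control array, and every probe set that is not an array control, 8740 of 8799. The rule for these members uses no measured value. The series is a study of urban particulate matter, the dust preparation EHC-93, and each of its 5 groups was measured on 1 one-colour oligonucleotide array.

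Both groups used here were rat lung, from which total RNA was taken. For the saline sham group, saline was instilled into the trachea, and equal amounts of RNA from 2, 15 and 24 h afterwards were mixed on 1 array. For the untreated control group, equal amounts of RNA from 3 rats that had no instillation were mixed on 1 array. The other 3 arrays, given below only as side values, held pools taken after instillation of the dust at 2, 4 and 6 h (early), 15, 18 and 21 h (intermediate) and 24, 32 and 40 h (late). The sources used here do not give the strain, sex or age of the rats, the number behind the sham pool, any anaesthetic or the time of day of sampling. A gene that differs at only 1 of the 3 saline times is averaged with the other times in the pool. With 1 array per group there is no replicate error, no standard deviation and no p-value, and a difference between the arrays cannot be told apart from a difference between the rats or the hybridisations behind them.

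Instillation places fluid directly on the airway and alveolar epithelium, where type I cells form the gas exchange surface, type II cells make surfactant and club cells line the small airways. Known early answers of lung to fluid and handling include acute phase proteins, the heme-degrading enzyme heme oxygenase 1, stress hormone targets and the ion channels that clear fluid from the air spaces. Lung removed with its large vessels also carries blood, and in rodents the pulmonary veins have a sleeve of heart muscle, so genes of blood and heart can be read in a lung sample.

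Values are scaled intensities, the brightness of a probe set after each array was brought to the same median, and a difference is the log2 of sham over untreated. Values under a floor of 170.21, the 40th percentile of all scaled values, were set to it, so a fold against the floor is only a bound, given as "at least". A gene was given by its probe set with the highest mean log2 level over these 2 arrays. Of 4736 named genes, 3459 were above the floor on at least 1 of the 2 arrays. Their median difference was -0.07, with quartiles at -0.29 and 0.16. By any amount, 1999 of the 3459 were lower on the sham array and 1460 higher. This is the background for the list counts by some amount below.

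The labelled tissue was checked against markers of lung cells. Scgb1a1, the club cell secretoglobin, read 23473 for sham and 25164 for untreated lung. Sftpc, the surfactant protein made only by type II cells, read 54439 and 52867, and Ager, a receptor of type I cells, read 27890 and 25601. All 3 were bright on both arrays and differed by -0.10, 0.04 and 0.12, so lung epithelium was read on both. The ratio of 5′ to 3′ signal, which falls as RNA or its labelled copy is shortened, was 14.7% for beta-actin on the sham array, 24.4% without instillation, and 25.4% and 39.1% for GAPDH. Its part in the differences below was not tested.

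Of the 3459 genes, 58 (1.68%) were at least 2-fold higher on the sham array and 60 (1.73%) at least 2-fold lower. At the level of single probe sets, 103 of 5733 (1.8%) were higher and 119 (2.08%) lower, and of these 21 higher and 22 lower ones were not listed in the annotation. Higher genes made up 49.2% of the calls, but 65.2% when the arrays were scaled to the 75th percentile, which moved the median of all genes from -0.07 to 0.05. For 34 of the 58 higher genes the untreated value was at the floor, and for 17 of the 60 lower genes the sham value was, so their folds are bounds.

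**Figure D1:**
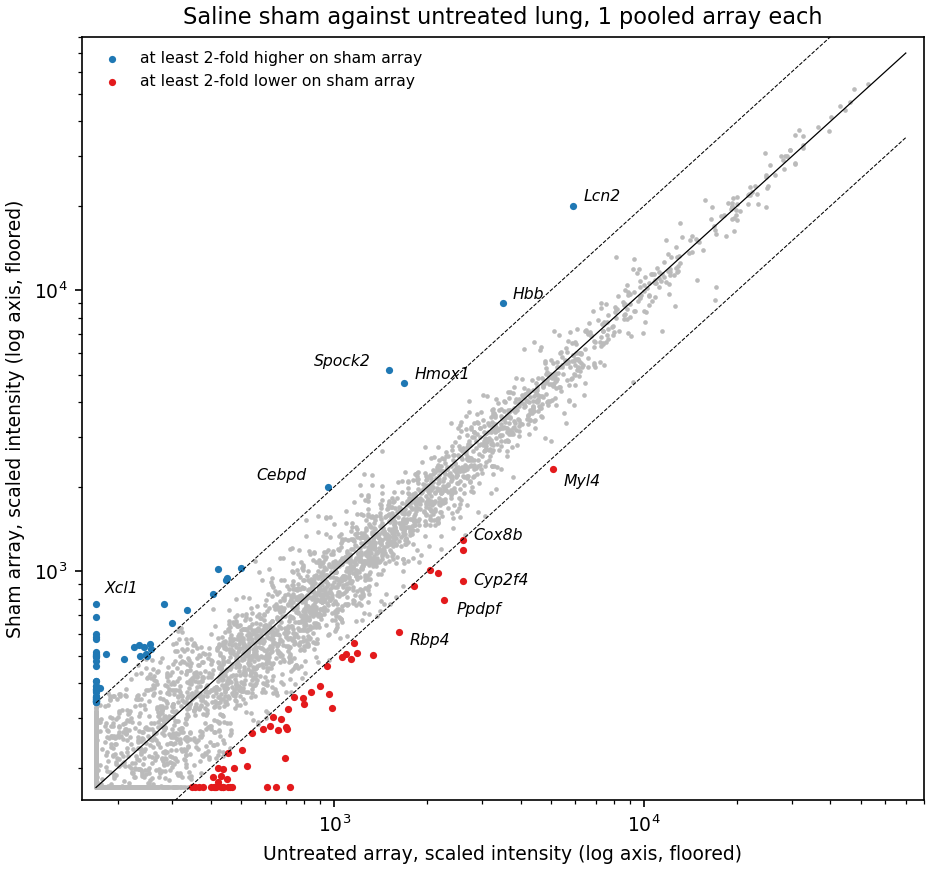
Each point is 1 of 3459 named genes, with its scaled intensity on the untreated array (x axis, log scale) against that on the sham array (y axis, log scale); values under the floor are drawn at the floor, the solid line marks equal levels and the dashed lines 2-fold. Blue points are the 58 genes at least 2-fold higher and red points the 60 at least 2-fold lower on the sham array, and most of them lie at low intensity, with Lcn2, Hbb, Spock2 and Hmox1 as bright exceptions above the upper line and Myl4 below the lower one.

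Most calls came from dim genes. Among 786 genes whose brighter array read 500 to 1000, 5.98% were at least 2-fold apart, and among 1472 genes that reached 1000 on either array, 1.49% were. The bright calls were 7 higher genes (Lcn2, Hbb, Spock2, Hmox1, Cebpd, Scfd1 and Cxcr1) and 15 lower genes (Myl4, Cyp2f4, Mycbp2, Cox8b, Ppdpf, Nppa, Ccl5, Fabp4, Rbp4, Cpd, Tcap, Acat2, Anp32a, Mmp14 and Plscr3). The account below starts with these and treats the dim genes as a group. List medians given below shifted upward by 0.01 to 0.27 under 75th percentile scaling, which turned the sign of 9 of 38 medians, none of them larger in size than 0.12, so no direction is read from medians that small. The choice of probe sets turned 2 larger ones, smooth muscle and liver, as given beside them.

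Sham and untreated had the fewest genes 2-fold apart among the 10 pairs of arrays, by a narrow margin. For every pair, each gene kept the probe set chosen on the sham and untreated arrays. They were 2-fold apart at 118 genes (3.41%), the intermediate and untreated arrays at 121 (3.59%), and the early and sham arrays, the most by count, at 226 (6.56%). The 3.41% therefore lies at the lower edge of what any pair of these arrays shows. By the standard deviation of the log2 differences over genes, the intermediate and late arrays were closer, at 0.424 against 0.427 for sham and untreated. No pair holds 2 arrays of the same group, so the share that repeat arrays of 1 group would give is not known here.

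**Figure D2:**
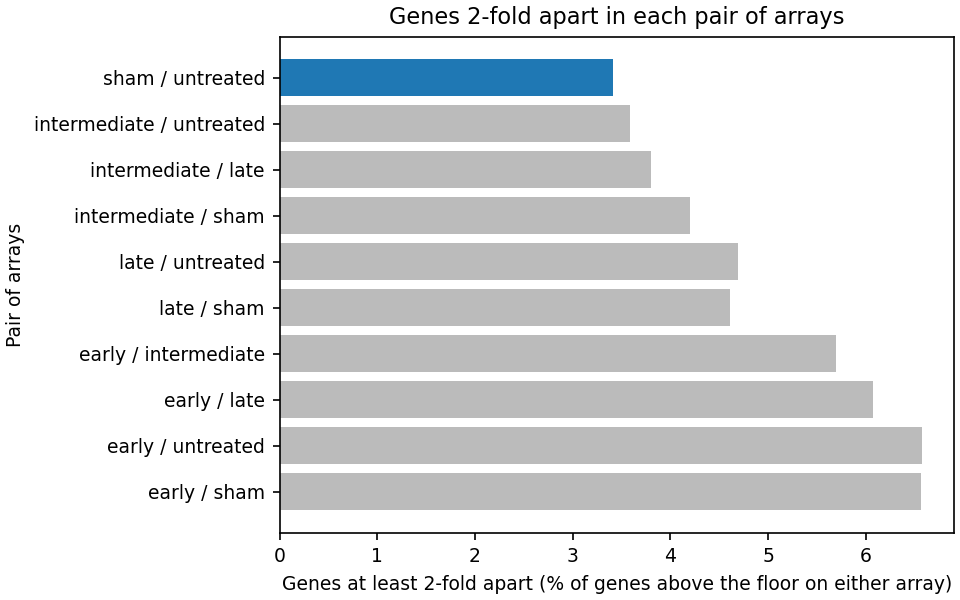
Bars give, for each of the 10 pairs of arrays (y axis), the percent of genes above the floor on either array that were at least 2-fold apart (x axis, from 0). Sham against untreated, in blue, has the shortest bar at 3.41%, and the pairs with the early array have the longest, from 5.69% to 6.57%.

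The brightest of the higher genes was Lcn2, lipocalin 2, an acute phase protein of airway epithelium and neutrophils that binds bacterial iron carriers. It read 20061 after saline and 5896 without instillation, and 30567, 48350 and 37664 on the early, intermediate and late dust arrays. The sham array was 3.40-fold above the untreated array, a difference of 1.77, and the untreated array was at least 2-fold below each of the other 4. Saline alone thus stood between no instillation and dust for this gene, with the single untreated value as the low point. In the 250 bases before its annotated start, a search found matches to motifs of NF-kappaB and of C/EBP factors, the family that includes Cebpd, which is why the stretch is shown. It is RefSeq sequence on build GRCr8, chr3:36081781-36082030, minus strand, printed 5′ to 3′ with the matches in capitals:
Lcn2: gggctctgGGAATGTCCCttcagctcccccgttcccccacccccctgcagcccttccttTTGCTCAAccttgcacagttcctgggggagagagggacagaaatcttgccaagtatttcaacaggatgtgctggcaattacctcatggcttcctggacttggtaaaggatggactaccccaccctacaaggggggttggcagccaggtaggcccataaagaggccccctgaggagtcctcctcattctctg

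The kappaB match lies 242 to 233 bases before the start, and the C/EBP match, TTGCNNAA, 191 to 184 bases before it. Searched on both strands, the kappaB motif was in 6.33% and TTGCNNAA in 9.22% of 33469 RefSeq promoter windows of the same length. The STAT motif TTCNNNGAA, held by 7.67% of windows, had no match in this one. The motifs were chosen after the values were seen, and a match describes letters only, not binding.

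Hmox1, heme oxygenase 1, breaks heme down to biliverdin, iron and carbon monoxide and is a general marker of oxidative stress. It read 4682 for sham and 1677 for untreated lung, against 15356, 7195 and 4521 on the early, intermediate and late dust arrays. The sham array was 2.79-fold above the untreated array (1.48) and close to the late dust array. A second Hmox1 probe set gave 788 for sham and 208 for untreated, a difference of 1.92 in the same direction. Its values on the dust arrays were 6106, 1102 and 924, so on both probe sets the untreated array was the lowest of the 5.

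Spock2 encodes testican-2, a proteoglycan of the extracellular matrix. It read 5213 after saline and 1502 without instillation (3.47-fold, 1.79). The early, intermediate and late dust arrays read 3573, 2318 and 5058, so the sham array was the highest of the 5 and the untreated array the lowest.

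Cebpd, the transcription factor C/EBP delta that drives acute phase genes, read 2003 for sham and 952 for untreated lung, 2.10-fold apart (1.07). The dust arrays read 5180, 1791 and 1905, so sham lay near the 2 later ones. Its 2 other probe sets above the floor were also higher on the sham array, by 0.68 and 0.59, both short of 2-fold. Cxcr1, a receptor for neutrophil-attracting chemokines, read 1019 after saline and 422 without instillation (2.42-fold), and 501, 326 and 711 on the early, intermediate and late dust arrays. The sham array was the highest of the 5 for Cxcr1. Scfd1, a protein of vesicle traffic, read 1032 against 501, a 2.06-fold difference, and between 383 and 638 on the dust arrays.

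Hbb, the beta chain of hemoglobin, read 8996 for sham and 3497 for untreated lung, 2.57-fold apart (1.36). The dust arrays read 10360, 3963 and 5330, so the sham and early arrays were high and the intermediate and untreated arrays low. Hbb-b1, a second beta globin, read 2693 after saline and 1427 without instillation (0.92). These globin copies are nearly identical, and the Hbb probe set is of a kind that reads several family members, so which copy gave the signal is uncertain. The other 2 red cell genes measured barely differed. Alas2, the heme synthesis enzyme of red cell precursors, read 581 for sham and 506 for untreated lung (0.20), and Slc4a1, the red cell anion exchanger, read 517 and 550 (-0.09). The red cell list thus had 1 of 4 measured genes at least 2-fold higher, a median of 0.56 and a summed level of 12788 on the sham against 5980 on the untreated array. The 12 genes of heme and iron handling, a list of their own, had Hmox1 as the 1 higher member, none lower and a median of 0.08. The amount of blood left in each lung was not recorded in the labels, and its part in Hbb, Hmox1 and Lcn2 was not tested.

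The list with the lowest median among those of at least 3 genes was heart muscle. Of 20 cardiac muscle genes measured, 4 were at least 2-fold lower, none was 2-fold higher, and 19 lay below the untreated level by some amount. The list median was -0.79, beside -0.07 for all genes. In bulk RNA, fewer cells of a type and less RNA per cell cannot be told apart.

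The genes past 2-fold covered the contractile apparatus, a hormone and energy supply. Myl4, the atrial essential light chain of myosin, read 2307 after saline and 5088 without instillation, 2.21-fold lower (-1.14). The dust arrays read 2040, 2420 and 1198, and the untreated array was at least 2-fold above all 4 others. Its second probe set, at 2266 for sham and 4702 for untreated lung, gave -1.05. Tcap, which anchors titin at the edge of the sarcomere, read 512 after saline and 1182 without instillation (-1.21) and 462, 864 and 456 on the dust arrays. Cox8b, the heart and muscle form of a subunit of cytochrome c oxidase, read 1293 against 2598 (-1.01), while its other probe set differed by -0.50.

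Nppa encodes atrial natriuretic peptide, the hormone that atrial muscle releases when stretched. It read 986 for sham and 2164 for untreated lung, and 1040, 1246 and 574 on the early, intermediate and late dust arrays. Sham was 2.20-fold below untreated (-1.13). Its 3 other probe sets gave -1.14, -1.07 and -1.97, so all 4 were more than 2-fold lower on the sham array. The bases before its annotated start, chr5:163711934-163712183 on GRCr8, plus strand, are shown because all 4 probe sets of this gene gave the same direction, with a TATA box and a GATA match in capitals:
Nppa: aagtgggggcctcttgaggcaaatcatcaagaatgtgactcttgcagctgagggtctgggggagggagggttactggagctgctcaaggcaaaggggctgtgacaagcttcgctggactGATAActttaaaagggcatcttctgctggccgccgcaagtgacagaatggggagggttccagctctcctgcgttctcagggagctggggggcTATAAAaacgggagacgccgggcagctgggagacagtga

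TATAAA lies 39 to 34 and GATAA 131 to 127 bases before the start, and 12.9% and 23.5% of the RefSeq windows hold these letters on either strand. The CArG motif of serum response factor, found in 1.5% of windows, had no match in this stretch.

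The brightest heart genes, by their main probe sets, were lower by less than 2-fold. Myl7, the atrial regulatory light chain, read 10321 after saline and 17034 without instillation (-0.72), and 6734, 11856 and 4871 on the dust arrays. Actc1, cardiac actin, read 9236 and 16970 (-0.88), and Tnni3, cardiac troponin I, read 4736 and 9215 (-0.96). Myh6, the alpha heavy chain of myosin, differed by -0.96 by its main probe set and by -0.41 and 0.13 by its others, and Tnnt2, cardiac troponin T, by -0.80. Other probe sets also disagreed. Of 3 for Myl2, the ventricular light chain, 1 gave -0.97, another -1.41 and the third 0.17, and Casq2, a calcium store protein, differed by 0.05. Cox6a2, a further muscle form of cytochrome c oxidase, gave -0.52 by its main and -1.14 by its other probe set. Myl3, Nppb, Ryr2 and Ttn were under the floor on both arrays.

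**Figure D3:**
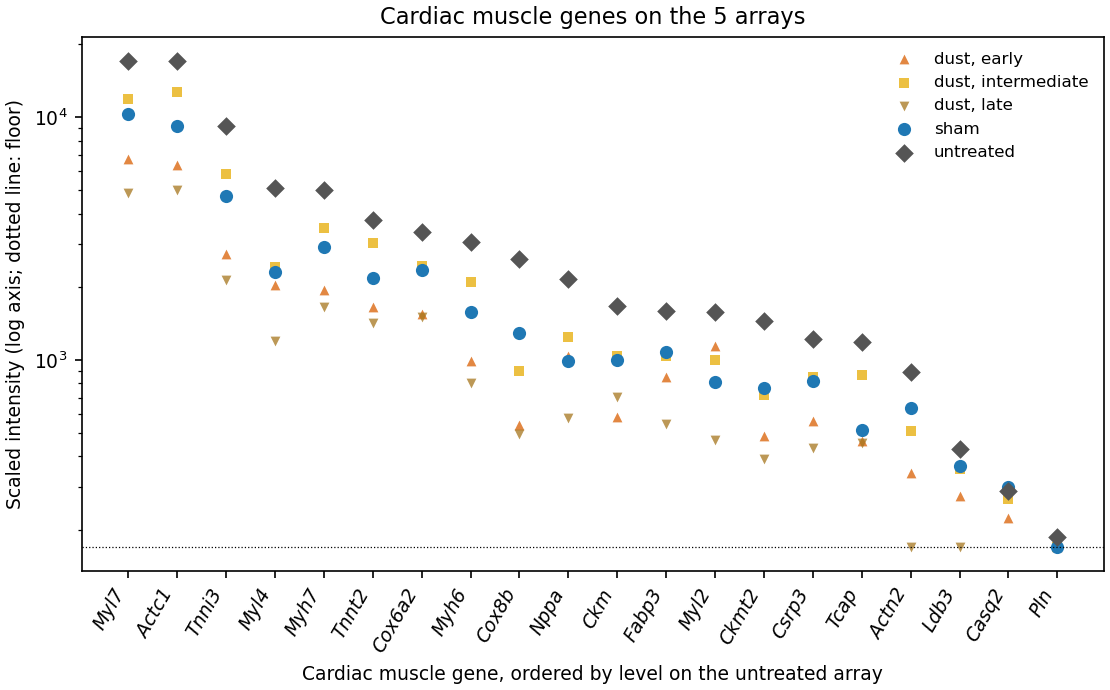
Points give the scaled intensity (y axis, log scale) of the 20 cardiac muscle genes measured (x axis, ordered by the untreated level) on each of the 5 arrays; values under the floor are drawn on the dotted line. The untreated array, as dark diamonds, is the highest of the 5 for 19 genes, and the sham array, as blue circles, lies between it and the late dust array for most.

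Across the arrays, the untreated array was the highest of the 5 for 19 of the 20 heart genes and the late dust array the lowest for 17. These counts were 7 and 6 of 37 respiratory chain genes, 3 and 0 of 37 ribosomal protein genes, and 5 and 1 of 5 club cell genes. The share over all genes was not counted, and these lists do not stand in for it, so the heart counts have no background here. The summed level of the heart genes was 78772 on the untreated array and 44344 on the sham array. It was 30639, 52810 and 23466 on the early, intermediate and late dust arrays. Every array of instilled lung thus read below the single untreated array, and the sham value lay inside the range of the dust arrays. Skeletal muscle genes had none of 12 past 2-fold and a median of 0.05. Smooth muscle genes had none of 10 past 2-fold, 9 lower by some amount and a median of -0.33, which turned to 0.04 when only probe sets built from expressed sequence tags were used. Acta2, smooth muscle actin, read 9979 and 10034, while Myh11, the smooth muscle myosin heavy chain, read 705 and 1290 (-0.87). How much heart or vein tissue went into each pool is not given, and its part in these values was not tested.

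**Figure D4:**
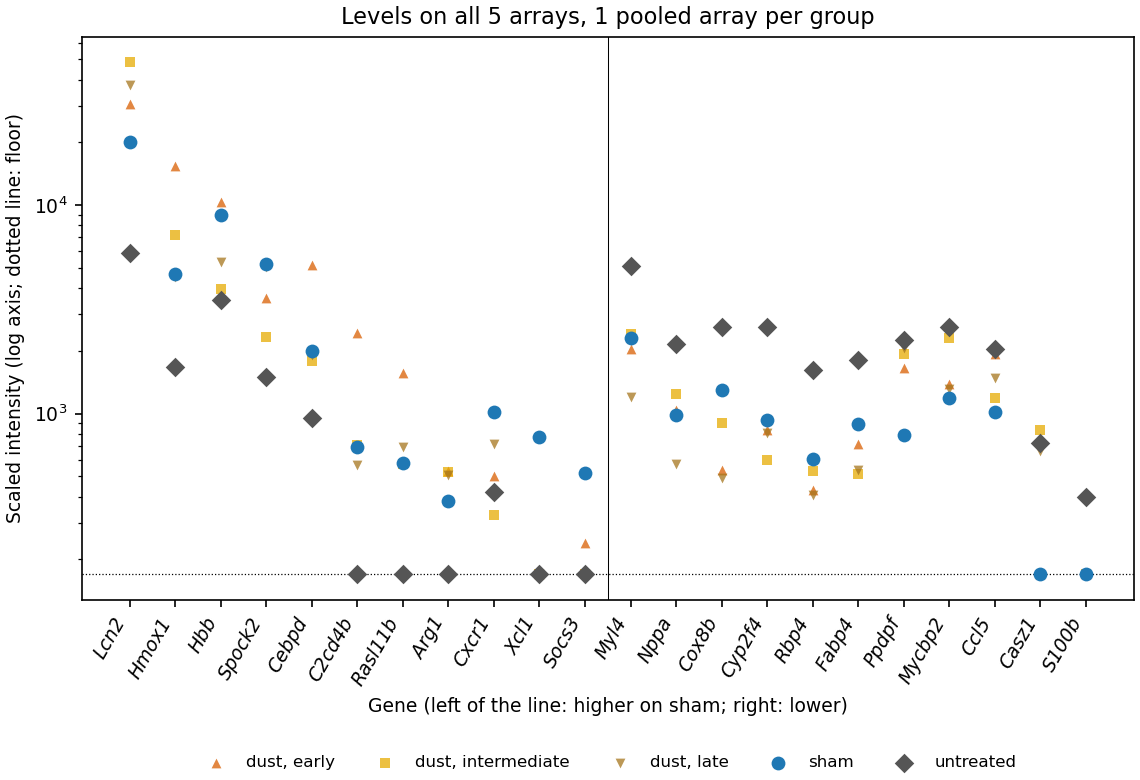
Points give the scaled intensity (y axis, log scale, floor as a dotted line) on each of the 5 arrays for 22 genes (x axis) at least 2-fold apart between sham and untreated, with the genes higher on the sham array to the left of the vertical line and those lower to the right. The untreated array (dark diamonds) is the lowest of the 5 for Lcn2 and Hmox1 and the highest for Myl4, Cyp2f4, Rbp4 and Fabp4, while the sham array (blue circles) stands alone for Xcl1 and Ppdpf.

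The bright lower genes outside the heart list had varied roles. Cyp2f4, a cytochrome P450 typical of club cells, read 927 for sham and 2607 for untreated lung (2.81-fold, -1.49). The dust arrays read 831, 597 and 807, and the untreated array was at least 2-fold above all 4 others. Cyp2a3, another airway P450, read 589 after saline and 1096 without instillation (-0.90), and its other probe set gave -1.37. The club cell list had 1 of 5 genes at least 2-fold lower, all 5 below the untreated level and a median of -0.30. Scgb1a1, the secretory product that defines club cells, differed by -0.10. Among 17 genes of xenobiotic metabolism Cyp2f4 was likewise the 1 gene past 2-fold, and the median was -0.14.

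Rbp4, the carrier of retinol, read 606 for sham and 1616 for untreated lung (2.66-fold, -1.41), with 430, 528 and 406 on the dust arrays. Its second probe set, at 250 against 719, gave -1.52. Fabp4, a fatty acid carrier of fat cells and macrophages, read 890 after saline and 1815 without instillation (-1.03), with 713, 512 and 538 on the dust arrays. For both genes the untreated array was at least 2-fold above all 4 others. Aqp7, the glycerol channel of fat cells, was at the floor on the sham and at 411 on the untreated array, at least 2.41-fold lower. The fat list had these 2 of 12 genes lower and a median of -0.08, and Ucp1, the uncoupling protein of brown fat, read 558 and 530. Of the 8 genes of the liver list, Rbp4 was the 1 past 2-fold, the median was -0.30 (0.01 when those built from tags were left out), and Alb, albumin, was near the floor on both arrays.

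Ppdpf, a regulator of cell differentiation named for the exocrine pancreas, read 793 for sham and 2264 for untreated lung (2.85-fold, -1.51). The dust arrays read 1660, 1933 and 2064, so here the sham array stood alone, at least 2-fold below all 4 others. Plscr3, a phospholipid scramblase of mitochondria, had the same form, at 498 on the sham array, 1061 on the untreated array and 1093 to 1314 on the dust arrays. Mycbp2, a large ubiquitin ligase, read 1192 after saline and 2607 without instillation (-1.13). Cpd, a carboxypeptidase of the Golgi, read 503 and 1330 (-1.40). Mmp14, a membrane-bound matrix protease, read 510 and 1093 (-1.10), Acat2, an enzyme of sterol synthesis, 555 and 1158 (-1.06), and Anp32a, a nuclear phosphoprotein, 488 and 1136 (-1.22). The other Acat2 probe set gave -0.23, and both others of Anp32a went the opposite way, by 0.55 and 0.11, so no direction is given for Anp32a. By the main probe set of each of these 5 genes, the sham array was the lowest of the 5. Ccl5, the chemokine RANTES that attracts T cells, read 1014 and 2034, a 2.01-fold difference at the edge of the threshold.

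Inflammation and acute phase genes were examined as lists. Of 22 acute phase and innate immune genes, Lcn2, Cebpd and Socs3 were at least 2-fold higher, none was lower, 17 were higher by some amount and the median was 0.25. Socs3, which ends signalling of interleukin 6, read 517 on the sham array, 238 on the early dust array and was under the floor on the other 3, at least 3.04-fold above untreated. C4bpa, a complement regulator, read 1089 and 556 (0.97), just short of the threshold, and Fgg, the fibrinogen gamma chain, read 4240 and 3028 (0.49). Among 20 cytokines and chemokines Xcl1 was higher and Ccl5 lower, with a median of 0.14. Xcl1, lymphotactin, read 768 on the sham array and was under the floor on the other 4, at least 4.51-fold above untreated. Il1b, interleukin 1 beta, read 1116 and 682 (0.71), against 4419, 3405 and 2029 on the dust arrays, while its 2 other probe sets above the floor gave 0.47 and -0.03. Ccl2, the monocyte chemokine that read 7002, 5295 and 4220 on the dust arrays, read 876 for sham and 801 for untreated lung (0.13), and its other probe set gave 0.69, so the probe sets do not settle the size of either difference.

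Markers of leukocytes were set beside these. The neutrophil list had 1 of 6 genes past 2-fold, Lcn2, which also sits in the acute phase and glucocorticoid lists, and a median of 0.52. S100a9, a calcium-binding protein of neutrophils, read 1321 after saline and 967 without instillation (0.45), and its partner S100a8 read 805 and 531 (0.60). Padi4, a granulocyte enzyme, read 407 and 452 (-0.15), and Cxcr2, Defa5, Mmp8 and Mmp9 were under the floor on both arrays. The list's summed level was 23170 for sham and 8276 for untreated lung, most of it Lcn2, and 37005 to 54358 on the dust arrays. Neutrophil content as a part of the Lcn2 difference was not tested. Of 9 macrophage genes Fabp4 alone was past 2-fold, and the median was 0.18, with Ctss, a lysosomal protease, at 6919 and 5311 (0.38). T and NK cell genes had none of 13 past 2-fold, 11 lower by some amount and a median of -0.29. All 3 B cell genes were lower, none past 2-fold, with a median of -0.65, and Cd79b, part of the B cell receptor, read 481 and 805. Mast cell and platelet lists had none past 2-fold, of 6 and 4 genes, and medians of 0.23 and 0.28.

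Stress hormone targets came next, since handling and anaesthesia can raise glucocorticoids. Of 14 measured, Lcn2 and Cebpd were at least 2-fold higher, none was lower, and the median was 0.21. Both genes are also in the acute phase list above, so this list adds no further call. Glul, glutamine synthetase, read 6542 after saline and 4408 without instillation (0.57), with 0.51, 0.20 and 0.07 by its other probe sets, and Klf9, a zinc finger target of the receptor, read 3702 and 2731 (0.44), with 0.02 by its other. Other textbook targets barely differed, with Anxa1, annexin A1, at 4895 and 5057 (-0.05) and Dusp1, a phosphatase of MAP kinases, at 2132 and 1865 (0.19). Cdkn1a, the cell cycle inhibitor p21, was at the floor on the sham array and at 325 on the untreated array (-0.93).

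The 8 circadian clock genes measured had none past 2-fold and a median of 0.10. Dbp, a clock output factor whose level swings widely over a day, read 690 for sham and 1037 for untreated lung (-0.59), against 742, 850 and 2894 on the early, intermediate and late dust arrays. Nr1d1, the repressor REV-ERB alpha, read 1149 and 1262 (-0.14). The widest differences in the list were Csnk1d, a kinase of clock proteins, at 1579 and 889 (0.83) but with another probe set at -0.25, and Bhlhe41, a clock repressor, at 1203 and 722 (0.74). The 3 saline times fall at different hours after instillation, and pooling averages over them.

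Fluid clearance genes had none of 17 past 2-fold and a median of -0.15. Atp1b1, the beta subunit of the sodium pump, read 13210 after saline and 8108 without instillation (0.70), and 12530 to 14323 on the dust arrays, so the untreated array was the lowest of the 5. Scnn1a, the alpha subunit of the epithelial sodium channel, read 7196 and 5121 (0.49), and its beta subunit Scnn1b went the other way, at 372 and 696 (-0.90). The water channels Aqp5 and Aqp1 differed by -0.22 and 0.17. None of the 3 osmotic stress genes passed 2-fold, and their median was -0.12.

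Type I and type II cell markers differed little, unlike some club cell markers above. Type II cell genes had none of 5 past 2-fold and a median of 0.12, with Sftpb at 35398 and 32623 and Sftpa1 at 37198 and 31746. Type I cell genes had none of 4 past 2-fold and a median of 0.09. The 1 ciliated cell gene above the floor, Foxj1, the master factor of motile cilia, read 267 for sham and 464 for untreated lung (-0.80). Endothelial genes had none of 7 past 2-fold and a median of -0.01.

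Immediate early genes, which answer to handling within minutes, had none of 25 past 2-fold and a median of 0.01. Egr1, an early growth response factor, read 7701 after saline and 10085 without instillation (-0.39), and Fos, the partner of Jun in AP-1, read 1386 and 1450 (-0.07). The widest differences were Myc at 484 and 259 (0.90), Nr4a2 at 359 and 204 (0.82) and Jund at 229 and 392 (-0.78). The other Myc probe set gave 0.10. Nr4a1 gave -0.37 by its main probe set and -1.39 by its other. The earliest saline time was 2 h and made up 1 of the 3 equal parts of the pool, so a shorter peak could not be read here. Heat shock and unfolded protein genes had none of 21 past 2-fold and a median of -0.04, with Hsp90ab1, a chaperone, at 19275 and 19843. The other Hsp90ab1 probe sets gave -0.09, -0.12 and, for a dim one at 284 and 651, -1.19. Widest in that list by main probe sets was Hspa1a, a heat shock protein, at 607 for sham and 323 for untreated lung (0.91). On the early, intermediate and late dust arrays Hspa1a read 11481, 778 and 550. Hypoxia and glycolysis genes had none of 16 past 2-fold and a median of -0.05, with Eno1, enolase, at 11443 and 11441.

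Antioxidant genes had Hmox1 as the 1 of 26 past 2-fold, while 18 lay lower by some amount and the median was -0.16. Over all genes, 1999 of 3459 lay lower by some amount. Interferon and antigen presentation genes had none of 19 past 2-fold, 13 lower by some amount and a median of -0.26. The antiviral GTPases Mx1 and Mx2 read 1227 and 1087 on the sham array and 2022 and 1730 on the untreated array (-0.72 and -0.67), while Cd74, the invariant chain of class II, read 32815 and 32508. Irf7, a regulator of interferon genes, gave -0.73 by its main probe set and -1.37 by the other. RT1-Bb gave -0.09 by its main probe set and 0.03 and 1.27 by its others above the floor.

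Respiratory chain genes had Cox8b, also in the heart list, as the 1 of 37 past 2-fold, and 32 of the 37 were lower by some amount, with a median of -0.20. Cox4i1, a subunit of cytochrome c oxidase in all tissues, read 20385 and 23344. Ribosomal protein genes had none of 37 past 2-fold and a median of -0.04. In the cell cycle list 1 of 21 was past 2-fold, Ccnd2, cyclin D2, at 283 for sham and 623 for untreated lung (-1.14), with a median of -0.17. In the sterol and lipid list it was Srebf1, the factor that drives fatty acid synthesis, at 231 and 505 (-1.13), 1 of 22, with a median of -0.18. The amino acid stress list had none of 10 past 2-fold and a median of 0.20. Its member Trib3 gave 0.32 by its main probe set and -1.44 by its other.

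Matrix genes had Mmp14 as the 1 of 31 past 2-fold, 14 higher by some amount and a median of -0.08. Dcn, decorin, a proteoglycan that coats collagen, read 3920 after saline and 5932 without instillation (-0.60), and its 3 other probe sets gave -0.57, -1.19 and -1.04. Col1a1, the main fibrillar collagen, read 10892 and 14843 (-0.45). Coagulation and vascular genes had Nppa, also in the heart list, and Agt as the 2 of 24 past 2-fold. In that list 11 were higher by some amount, and the median was -0.05. F3, tissue factor, read 2219 for sham and 1252 for untreated lung (0.83). Plaur, the urokinase receptor, which is in the matrix list too, read 996 and 570 (0.80). Agt, angiotensinogen, was under the floor on the sham array and read 469 on the untreated array, at least 2.75-fold lower. The nerve list had 1 of 8 in each direction and a median of -0.04. Prph, a filament protein of peripheral neurons, read 546 for sham and 234 for untreated lung, and S100b, a glial protein, was read on the untreated array alone, at 399.

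**Figure D5:**
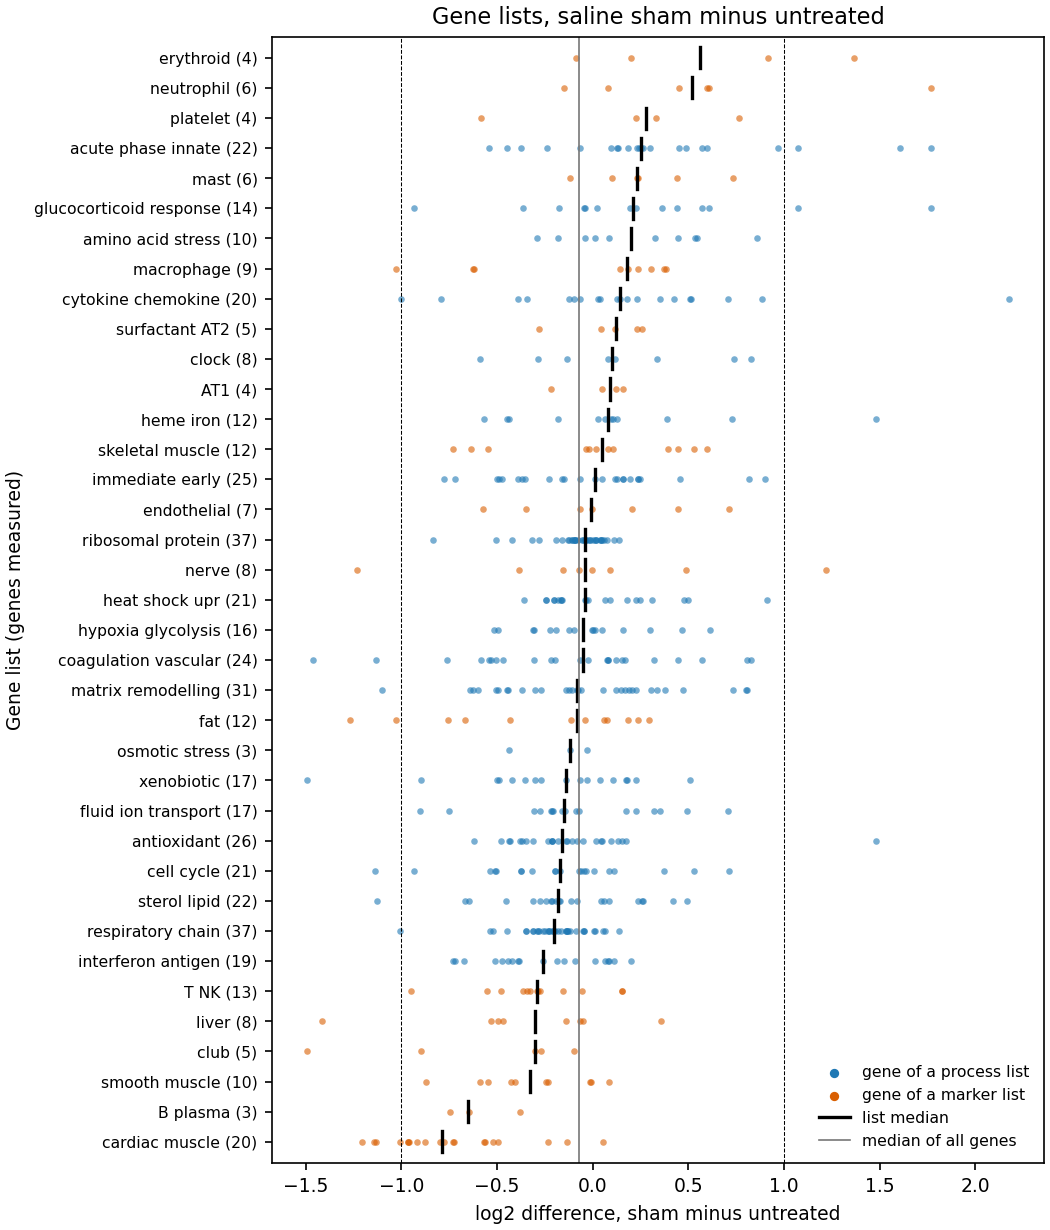
Each point is the log2 difference of 1 gene, sham minus untreated (x axis), in the lists with at least 3 genes measured (y axis, number of genes in brackets), with process lists in blue and cell marker lists in orange. Short black bars are list medians, the grey line is the median of all genes at -0.07 and dashed lines mark 2-fold; heart muscle lies lowest, at a median of -0.79, and the red cell and neutrophil lists highest, at 0.56 and 0.52, on 4 and 6 genes.

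The remaining leading genes were dim. Several of the 25 highest were at the floor on the untreated array alone and were read on all 3 dust arrays. C2cd4b, a nuclear protein induced by cytokines, read 690 on the sham array and 2426, 710 and 566 on the dust arrays, at least 4.05-fold above untreated. Rasl11b, a Ras-like protein, read 577 on the sham and 1562, 570 and 689 on the dust arrays, at least 3.39-fold, and its second probe set read 482 on the sham array and the floor on the untreated array. Clec10a, a galactose-binding lectin of macrophages, read 506 on the sham and 364, 444 and 564 on the dust arrays, at least 2.97-fold. Akap11, an anchoring protein of protein kinase A, and Pvr, the poliovirus receptor that NK cells recognise, were likewise at the floor on the untreated array alone, at 497 and 598 on the sham array. Bst1, an ectoenzyme of myeloid cells, read 767 on the sham, 282 on the untreated and 686 to 867 on the dust arrays. Arg1, arginase 1 of activated macrophages, ranked below the first 25 and read 383 on the sham array, 508 to 530 on the dust arrays and under the floor on the untreated array.

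A second kind was brightest on the sham array. Gata4, a transcription factor of heart and gut, read 585 on the sham array, 254 on the late dust array and was under the floor on the other 3. Tnfrsf8, the lymphocyte receptor CD30, read 461 on the sham and 230 on the late dust array and was under the floor on the rest. Adcyap1, the neuropeptide PACAP, read 501 on the sham array alone, but its other probe set went the other way, by -0.56. Pou2f3, a factor of tuft cells, read 481 by its main probe set, with 358 on the intermediate dust array and the floor elsewhere, and its other probe set differed by -0.01. Inhba, the activin A subunit, and Msx1, a homeobox factor, read 508 and 500 on the sham array and between 173 and 345 on the dust arrays. The other 5 of the 25 highest genes, Grk1, 1810009J06Rikl, Nptxr, Espn and Amigo1, were between 2.33-fold and 2.75-fold higher, with Nptxr and Espn as bounds.

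Among the 25 lowest, Casz1, a zinc finger factor, was under the floor on the sham and early arrays and read 722 on the untreated array and 838 and 658 on the intermediate and late dust arrays, at least 4.24-fold lower. Dnm1, the membrane-cutting dynamin of neurons, was under the floor on the sham array alone and read 607 on the untreated array, at least 3.57-fold lower. Gamt, an enzyme of creatine synthesis, read 216 and 696 (-1.68), but its second probe set read 538 and 203, a difference of 1.41 the other way, so no direction is given for it. Cnksr3, a scaffold of sodium channel control, read 327 after saline and 986 without instillation (3.01-fold lower), and Gpx7, a peroxidase of the endoplasmic reticulum, 365 and 965. Adgrl1, an adhesion receptor, read 278 on the sham array, 701 on the untreated array and 598 to 741 on the dust arrays, and was at least 2-fold below all 4 others. A further 12 (Rab7a, Adar, Opn1mw, Akt2, Hsd17b8, Coa3, Dgcr6, Ttc38, Tnfrsf11b, Ptger3, Nrarp and Cacna2d1) lay between 2.37-fold and 2.71-fold lower, 7 of them as bounds. Nkx2-5, the cardiac homeobox factor, ranked just below these and read 200 on the sham, 475 on the untreated and 323 to 423 on the dust arrays.

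All calls, bright and dim, were set beside second probe sets where the array had one. A gene was counted if any other probe set above the floor went the same way, however little, as for Or10al7 at 0.07. The like share among all genes was not computed, so the counts by direction have no background. Of the 58 higher genes, 11 had another probe set above the floor, 7 of these had one in the same direction, and 3 had one past 2-fold. Of the 60 lower genes, 13 had another, 10 had one in the same direction and 3 had one past 2-fold, and for Gamt it was past 2-fold in the opposite direction. Those past 2-fold in the same direction were Hmox1, Rasl11b and Hrk among the higher genes and the bright Rbp4, Myl4 and Nppa among the lower. A further Hrk probe set went the other way, by -0.58. Of the 45 lower genes under 1000 on both arrays, 7 had another probe set above the floor, and 0 had one past 2-fold in the same direction. For Myl9, a smooth muscle light chain that was not called, the main probe set differed by -0.01 and the other by 1.57.

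Because both arrays enter every difference once, each call was also placed among all 5 arrays. Of the 58 higher genes, 16 had the sham array at least 2-fold above all 4 others, 9 had the untreated array at least 2-fold below all 4 others, and 33 had neither. Of the 60 lower genes, 5 had the sham array below all 4 others, 7 had the untreated array above all 4 others, and 48 had neither. Over all 3645 genes above the floor on any array, the early array stood 2-fold above the 4 others at 51 genes and the late array below them at 24. For the sham array these counts were 16 above and 5 below, and for the untreated array 7 and 9. A gene so counted for sham or untreated is a called gene by construction. These are therefore the same genes as above, and not a background for them.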

How the data were processed

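The deposited table holds 1 linear intensity per probe set and array. The sources used here do not name the authors' algorithm or software. Trimmed of the top and bottom 2%, the 5 arrays had means from 1001.38 to 1001.63, which shows scaling before deposit. Intensities were scaled here to equal medians (factors 0.919 for sham and 0.957 for untreated), floored, and taken to log2 with Python 3.11.15, pandas 2.3.3 and NumPy 2.4.6. The 59 control probe sets served only for the 5′ to 3′ ratios. Genes were named from GEO's platform annotation: 7006 probe sets had 1 symbol, 308 several and 1426 were not listed; 6985 identifiers were found in RefSeq's table (GRCr8), which updated symbols.

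A call is a difference of at least 2-fold, with no test. Named genes are the 25 highest and 25 lowest called genes, list members past 2-fold, and for lists with none up to 3 with the highest mean; others were chosen after their values were seen. One of the 25 lowest is not reported here. The comparison and the 38 lists (885 symbols, 501 measured) were chosen with earlier results of these data known. Summed list levels count values under the floor as the floor. The fold rule was run on simulated data with less spread between arrays than was seen here and changes planted only in genes well above the floor. That run therefore does not cover calls at or near the floor. Promoter windows existed for 94 of 118 called genes, not for Hmox1 or Cebpd. Alternatives covered scaling, floor, probe set rule, sequence source and threshold.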

Additional observations from a re-analysis of the deposited data

How the results depend on the processing

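The floor and the threshold moved the counts most. The main 58 higher and 60 lower genes became 289 and 221 with the floor at the 20th percentile, and 9 and 18 at the 60th. A 1.5-fold threshold gave 232 and 274 genes, and a 3-fold threshold 8 and 5. A floor at 1000, chosen after seeing the data, left 5 and 7. Without probe sets made from expressed sequence tags, 32 genes were lower (44 higher), and with those alone 18 and 31. Scaling changed the balance: values as deposited gave 73 and 54, the 75th percentile 86 and 46, quantile normalization 67 and 59. Of the main calls, 58 higher and 46 lower were also called after 75th percentile scaling. List medians turned sign for 9 of 38 lists after 75th percentile scaling, 5 with values as deposited and 4 after quantile normalization, all of them 0.12 or smaller in size. Reversals were Adcyap1 at -0.84 and Pou2f3 at -0.01 with the floor at the 20th percentile, Pou2f3 at -0.01 with the probe set chosen over 5 arrays, the liver list median at 0.01 without tag-derived probe sets, and the smooth muscle list median at 0.04 with those alone. Of 61 genes chosen by the naming rule, 51 could be run with the floor at the 60th percentile, and 32 of these no longer passed 2-fold there. The genes that kept their call in every setting run, that floor included, were 10: Lcn2, Hmox1, Hbb, Spock2, Cyp2f4, Ppdpf, Myl4, Nppa, Cnksr3 and Gpx7. A further 9 dimmer ones kept it in the settings run, but lay under that floor and were not run there. The settings run for single genes were scalings, floors, probe set rules and sequence sources, not the other thresholds. Lcn2, Hbb, Spock2, Cyp2f4, Cnksr3 and Gpx7 had no other probe set, and that of Ppdpf was under the floor on both arrays. For these genes the probe set rules and sequence sources could only return the same call. Cnksr3 and Gpx7, under 1000 on both arrays, were run in 8 settings, the rest of the 10 in 9 or 10. Of the 10, only Lcn2, Spock2 and Cnksr3 were past 3-fold. The heart list median stayed between -0.88 and -0.66. No paired analysis was possible because each group has 1 array. The number of arrays limits the precision, and signal near the floor limits most calls.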
